A study of Mus musculus with 6 samples.

Results

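Caveolae are small flask-shaped pits of the plasma membrane. Caveolins form their membrane scaffold and cavins a coat around it, the ATPase Ehd2 sits at the neck, and pacsins bend membrane through an F-BAR domain. Flotillins mark ordered membrane microdomains that are separate from caveolae. Caveolae are abundant in endothelial cells, adipocytes and muscle, and in endothelium they have been linked to the passage of lipoproteins across the cell. The 10 genes described here are Cav1 and Cav2, the cavins Cavin1, Cavin2 and Cavin3, the neck protein Ehd2, the pacsins Pacsin2 and Pacsin3, and the flotillins Flot1 and Flot2. They were picked by gene name, with earlier results of these data known, and each was found by symbol among the 15973 protein-coding genes compared.

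RNA was sequenced from 4T1-T cells, a VM-proficient sub-clone of the mouse mammary carcinoma line 4T1 that can take up acetylated low-density lipoprotein (acLDL), a property of endothelial cells. VM, or vasculogenic mimicry, is the forming of vessel-like networks by tumor cells. The comparison asks whether endothelial gene expression goes with this uptake. By gene set enrichment, the paper reports endothelial genes as enriched in the cells with high uptake. That gene set was not examined here. All cells were starved of serum overnight, given fluorescently labelled acLDL at 10 μg/mL for 4 h and returned to complete medium for 1 h, and the brightest 25% (acLDL-high) and dimmest 25% (acLDL-low) were sorted. There were 3 acLDL-high and 3 acLDL-low libraries, numbered 1 to 3 in each population. Both populations come from the same clonal line and both met acLDL, so cells without acLDL, a second clone and endothelial cells were not part of the comparison. No agent or genotype distinguishes the populations other than the sort.

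Library totals ranged from 70263372 to 94216786 counts, and each of the 10 genes had between 1059 and 35126 counts in every library, so depth did not limit any of them. Libraries that share a replicate number deviated together from their population means, and the fit therefore held the number as a block. The epithelial keratin Krt8 lay between 865 and 1389 CPM (gene counts relative to the TMM-scaled library size), whereas the 8 endothelial markers summed to between 2.68 and 4.58 CPM in every library, with Cldn5 and Emcn at 0 counts. These populations carried an epithelial, not an endothelial, marker profile. Of 15 G2/M genes, 10 rose in acLDL-high cells and 0 fell, against 3.43% of all genes tested that rose. The mitotic ubiquitin-conjugating enzyme Ube2c was higher by 0.56 on the log2 scale (SE 0.05, adjusted p = 0.000119). Without replicate 3 the number of G2/M genes that rose was 5. The G2/M list was chosen with earlier results of these data known, so its count is a description and not independent support.

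No caveolin, cavin, partner or flotillin gene of the 10 was called as changed between acLDL-high and acLDL-low cells: 0 of 10 passed an adjusted p of 0.05 in edgeR's quasi-likelihood test, 0 had an unadjusted p under 0.05, and DESeq2 also called 0. With other settings at most 2 of the 10 had an unadjusted p under 0.05, Cav1 and Cavin2 without replicate 1. In the same test 4.75% of the 12572 genes tested passed, 3.43% higher and 1.32% lower in acLDL-high cells, 597 genes in all (126 without replicate 3), and 19.4% had an unadjusted p under 0.05. The log2 fold change (acLDL-high minus acLDL-low) was above 0 for 6 of the genes and below 0 for 4. Its median was 0.04 over the 10 genes and 0.0017 over all genes tested. The median size of the change without its sign was 0.047 for the 10 genes and 0.057 for the 9211 genes with an average of at least 3 on the log2 CPM scale, of which 5.53% passed. Taken over the 10 genes, the 95% confidence intervals ran from -0.24 to 0.23, or from 0.849-fold to 1.17-fold. These are the outermost ends of 10 separate intervals, not a joint bound on all 10. Their width also draws on the spread of the other genes tested. In bulk RNA, fewer cells that express a gene and less of its RNA in each cell cannot be told apart.

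**Figure D1:**
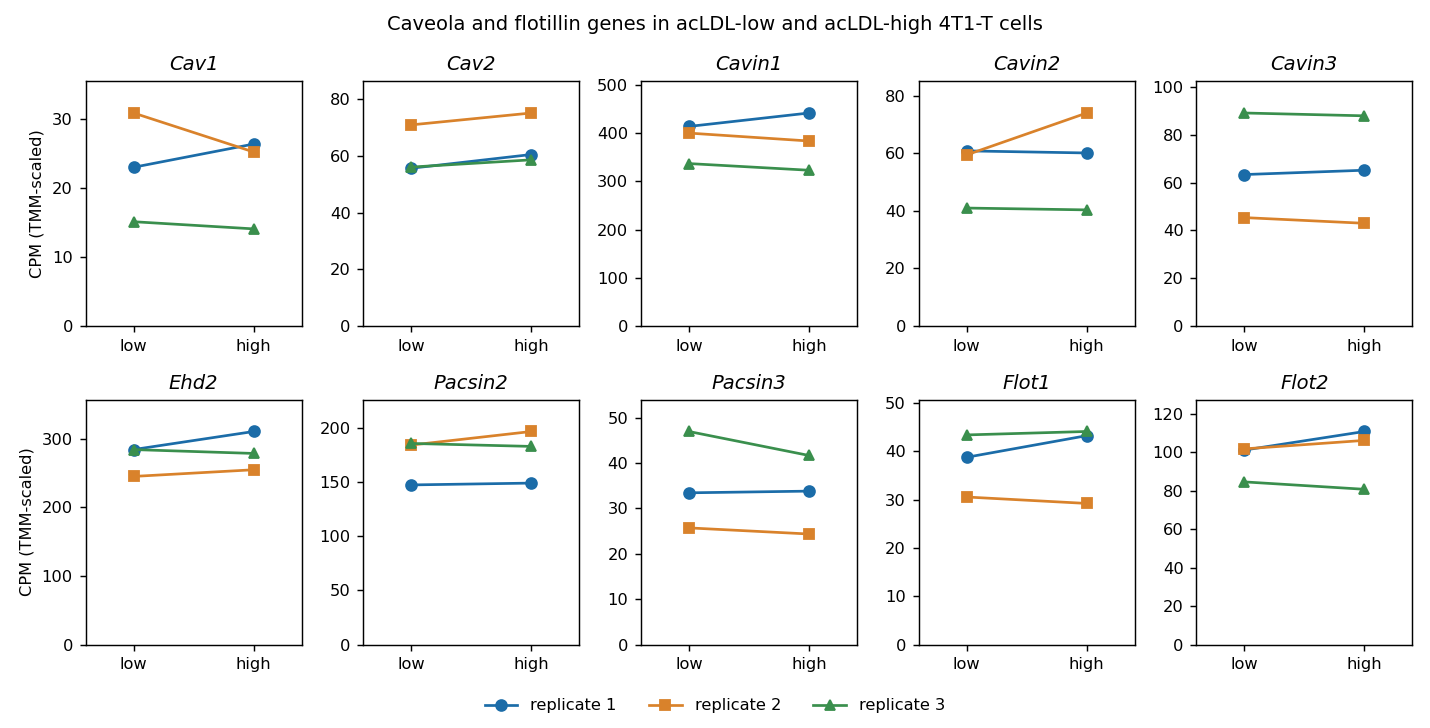
TMM-scaled CPM of each of the 10 genes (vertical axis, a panel for each gene) in the 3 acLDL-low and 3 acLDL-high libraries (points), with lines joining libraries of the same replicate number. Most lines are nearly flat, those of Cav1 and Cavin2 in replicate 2 being the steepest: Cavin3 lay near 44.2, 64.3 and 88.5 CPM in replicates 2, 1 and 3, whichever population was measured.

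The plot of CPM by library shows that the ranges of both populations overlapped for all 10 genes. Such ranges set the pairing by replicate number aside. Stom and Arhgap26, called genes described below, overlapped too, so overlap alone does not show a lack of change. The share of all genes tested that overlapped was not counted. The members are taken in turn below, by their role in the caveola.

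Cav1 encodes caveolin-1, the integral membrane protein without which most non-muscle cells form no caveolae. It lies on chromosome 6 from 17306335 to 17341452 on the plus strand of GRCm38. Its level was 23.0, 30.9 and 15.1 CPM in acLDL-low replicates 1, 2 and 3, and 26.4, 25.2 and 14.1 CPM in acLDL-high replicates 1, 2 and 3. Replicate 3 was the lowest of each population and the populations overlapped. The means were 23.0 ± 7.89 and 21.9 ± 6.80 CPM (SD, n = 3 each), with a log2 fold change of -0.07 (SE 0.08, 95% confidence interval -0.24 to 0.10, adjusted p = 0.708). Within replicate numbers 1, 2 and 3 the log2 difference was 0.20, -0.29 and -0.10, and without replicate 2 the fitted change was 0.05.

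Cav2, caveolin-2, forms hetero-oligomers with caveolin-1 and depends on it to leave the Golgi. The gene lies beside Cav1 on the same strand, from 17281185 to 17289115 on chromosome 6, and 17219 bases separate the end of Cav2 from the start of Cav1. Cav2 measured 55.7, 71.0 and 56.1 CPM in acLDL-low and 60.5, 75.2 and 58.7 CPM in acLDL-high replicates 1, 2 and 3. It was the only gene of the 10 that lay higher in acLDL-high cells for all 3 numbers, by 0.12, 0.08 and 0.06 on the log2 scale. The populations overlapped, and the share of all genes tested that lay higher for all 3 numbers was not counted. Its fitted log2 fold change was 0.09 (SE 0.04, 95% confidence interval -0.0034 to 0.18) and did not pass edgeR's quasi-likelihood test (adjusted p = 0.277). This was the smallest adjusted p among the 10 genes.

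The stretches around the start sites of the neighbouring Cav1 and Cav2 genes, and of Cavin1, the most abundant of the 10, are shown because they encode the caveolins and the main coat protein. Each runs 5′ to 3′ on the gene's own strand, from 250 bases before to 50 bases after the first RefSeq start (GRCm38.p6): Cav1 chr6:17306085-17306384 (plus), Cav2 chr6:17280935-17281234 (plus) and Cavin1 chr11:100970568-100970867 (minus). Capitals mark matches, on either strand, to the TEAD core GGAATG, the GC box GGGCGG, the CCAAT box, the TATA box TATAAA or the AP-1 site TGANTCA.
Cav1: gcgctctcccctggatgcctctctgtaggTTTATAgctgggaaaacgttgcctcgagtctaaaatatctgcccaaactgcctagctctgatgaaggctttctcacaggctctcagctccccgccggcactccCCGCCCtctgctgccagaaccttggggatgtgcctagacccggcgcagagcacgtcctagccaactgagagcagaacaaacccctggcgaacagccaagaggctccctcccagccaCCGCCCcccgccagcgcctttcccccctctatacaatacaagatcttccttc
Cav2: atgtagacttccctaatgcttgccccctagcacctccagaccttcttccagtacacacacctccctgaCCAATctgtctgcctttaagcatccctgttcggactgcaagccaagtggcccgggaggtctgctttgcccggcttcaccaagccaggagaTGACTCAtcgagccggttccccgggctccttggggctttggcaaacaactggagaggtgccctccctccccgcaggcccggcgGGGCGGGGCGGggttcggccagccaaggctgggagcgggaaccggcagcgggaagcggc
Cavin1: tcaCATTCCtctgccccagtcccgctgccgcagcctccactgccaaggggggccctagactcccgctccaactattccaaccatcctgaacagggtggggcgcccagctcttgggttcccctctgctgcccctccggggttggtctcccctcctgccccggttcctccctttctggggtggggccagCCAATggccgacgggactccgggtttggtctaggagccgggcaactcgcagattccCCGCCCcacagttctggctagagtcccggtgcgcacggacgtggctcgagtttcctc
The Cav1 stretch held 2 GC boxes and 1 TATA box on the other strand. Cav2 held 2 GC boxes that overlap each other, 1 CCAAT box and 1 AP-1 site, and Cavin1 held 1 TEAD core, 1 GC box and 1 CCAAT box. Of 32851 mouse promoters of the same length, 35.7% held a GC box, 37.4% a CCAAT box, 14.7% a TEAD core, 13.6% a TATA box and 7.81% an AP-1 site. The table held 8 of the 10 genes, all but Cavin3 and Flot1. These are matches of letters only. The Cavin1 stretch, placed by its RefSeq start, lies wholly inside the gene as GENCODE places it, from 100956733 to 100970887.

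Cavin1 encodes the coat protein that every caveola needs beside caveolin. It is on chromosome 11 from 100956733 to 100970887 on the minus strand. Its level was 414, 399.9 and 337 CPM in acLDL-low and 442, 383 and 323 CPM in acLDL-high replicates 1, 2 and 3. Each population descended in the same order of replicate numbers and their means were alike, at 383 ± 41.0 and 383 ± 59.3 CPM (SD, n = 3 each). The log2 fold change was -0.0089 (SE 0.05, 95% confidence interval -0.11 to 0.09, adjusted p = 0.943), the smallest change of the 10, and its sign differed between settings of the fit.

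Cavin2, which helps bend the caveolar membrane, lies on chromosome 1 from 51289126 to 51302960 on the plus strand. It was measured at 60.8, 59.4 and 41.0 CPM in acLDL-low and 60.1, 74.0 and 40.3 CPM in acLDL-high replicates 1, 2 and 3. The acLDL-high library of replicate 2 stood above the other 5, which set the fitted log2 fold change of 0.09 (SE 0.06, 95% confidence interval -0.04 to 0.23, adjusted p = 0.446). In replicates 1 and 3 the difference was -0.02 each, and without replicate 2 the change was -0.02.

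Cavin3, a cavin that binds protein kinase C delta, lies on chromosome 7 from 105480083 to 105482300 on the minus strand. It measured 63.4, 45.4 and 89.1 CPM in acLDL-low and 65.2, 43.0 and 88.0 CPM in acLDL-high replicates 1, 2 and 3. Values for the same number were almost equal while the numbers themselves were widely apart, and the log2 fold change was -0.02 (SE 0.04, 95% confidence interval -0.11 to 0.08, adjusted p = 0.875). Of its exons, 374 bases (22.5%) overlap the opposite-strand model Gm45667, which had at most 12 counts in a library. The strand setting of the counting is not given in the sources used here.

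Ehd2 forms ATP-dependent rings at the caveolar neck and holds caveolae at the surface. The gene lies on chromosome 7 from 15946958 to 15967567 on the minus strand. It was measured at 284, 245 and 284 CPM in acLDL-low and 311, 255 and 279 CPM in acLDL-high replicates 1, 2 and 3. The populations overlapped, and the log2 fold change of 0.05 (SE 0.04, 95% confidence interval -0.04 to 0.15, adjusted p = 0.575) was made of 0.13, 0.06 and -0.03 within the 3 numbers.

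Pacsin2 is the broadly expressed pacsin that shapes the caveolar neck. It lies on chromosome 15 from 83375607 to 83464606 on the minus strand. Its level was 147, 184 and 186 CPM in acLDL-low and 149, 197 and 183 CPM in acLDL-high replicates 1, 2 and 3. Replicate 1 was the lowest of both populations, and the log2 fold change was 0.03 (SE 0.04, 95% confidence interval -0.06 to 0.12, adjusted p = 0.759).

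Pacsin3, the pacsin best known from muscle, lies on chromosome 2 from 91255954 to 91264679 on the plus strand. It was measured at 33.4, 25.7 and 46.9 CPM in acLDL-low and 33.8, 24.3 and 41.7 CPM in acLDL-high replicates 1, 2 and 3. The populations overlapped, with the largest gap within replicate 3, at -0.17 on the log2 scale. The fitted log2 fold change was -0.08 (SE 0.05, 95% confidence interval -0.19 to 0.03, adjusted p = 0.445). Its exons share 42 bases (1.0%) with the opposite-strand model Gm17281, which had 0 counts.

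Flot1 and Flot2 encode the flotillins, which assemble with each other in membrane microdomains. Flot1 (chromosome 17, 35823230 to 35832791, plus strand) measured 38.8, 30.6 and 43.4 CPM in acLDL-low and 43.3, 29.2 and 44.1 CPM in acLDL-high replicates 1, 2 and 3. Flot2 (chromosome 11, 78037931 to 78060434, plus strand) measured 101, 102 and 84.7 CPM in acLDL-low and 111, 106 and 80.8 CPM in acLDL-high replicates 1, 2 and 3. Both overlapped between populations, with Flot1 lowest in replicate 2 and Flot2 lowest in replicate 3. The log2 fold change was 0.04 for Flot1 (SE 0.05, 95% confidence interval -0.07 to 0.15, adjusted p = 0.734) and 0.04 for Flot2 (SE 0.05, 95% confidence interval -0.06 to 0.14, adjusted p = 0.674).

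**Figure D2:**
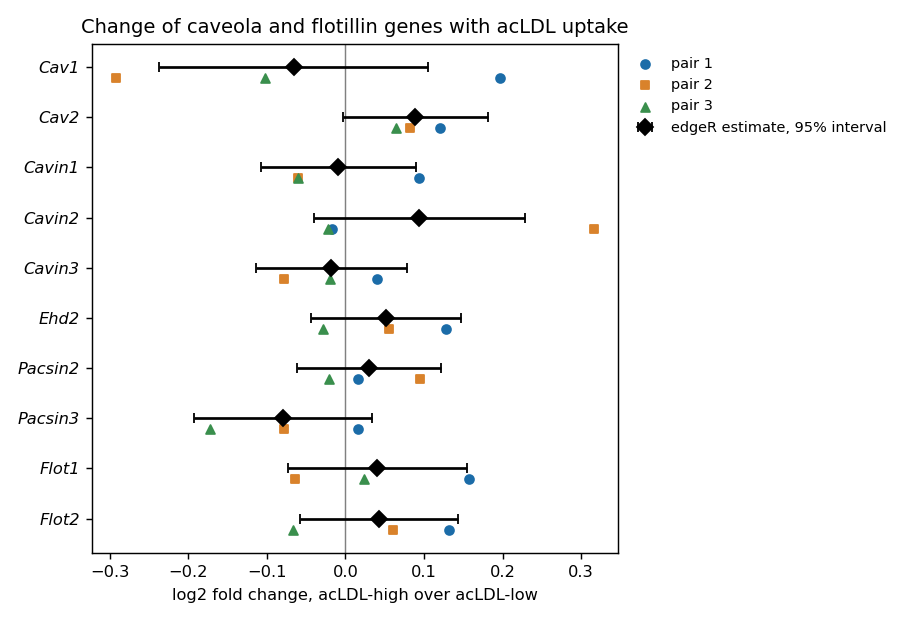
Log2 fold change (acLDL-high minus acLDL-low, horizontal axis) of the 10 genes, with the 95% confidence interval of edgeR's quasi-likelihood fit as a bar and the differences within replicate numbers as small points. Every interval crosses 0, and Cav2 is the gene whose interval, -0.0034 to 0.18, reaches least below it.

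In the plot of fold changes, all 3 replicate numbers of Cav2 lay above 0. The other 9 genes had at least 1 replicate number on each side of 0, and 0 of the 10 lay lower in acLDL-high cells for all 3 numbers. The share of all genes tested with 1 direction in all 3 numbers was not counted. These counts therefore do not set Cav2 apart.

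Levels were next compared between genes as RPKM, TMM-scaled CPM per kilobase of merged exons, averaged over the 6 libraries. Cavin1 was the highest at 107 RPKM (range 90.0 to 123), above 97.4% of the genes tested. Ehd2 followed at 54.0 RPKM (47.9 to 60.7) and Cavin3 at 39.5 RPKM (25.9 to 53.6). Flot2 at 35.6 and Pacsin2 at 35.5 RPKM came next, then Cav2 at 18.9, Cavin2 at 18.3 and Flot1 at 13.2 RPKM. Pacsin3 at 7.93 RPKM (5.63 to 10.8) and Cav1 at 6.52 RPKM (4.09 to 8.97) were lowest, Cav1 being above only 50.6% of the genes tested.

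In this order only 2 pairs of neighbours did not overlap over the 6 libraries, Cavin1 above Ehd2 and Pacsin2 above Cav2. Ehd2 was above Cavin3, and Flot1 above Pacsin3, in 6 of 6 libraries although their ranges met. Flot2 exceeded Pacsin2 in 2 of 6 libraries, Cavin3 exceeded Flot2 in 3 and Cav2 exceeded Cavin2 in 3, so the order within these pairs was not set beyond the spread. Cavin2 exceeded Flot1, and Pacsin3 exceeded Cav1, in 4 of 6 libraries. The order also rests on 1 exon length per gene. By CPM, without division by length, Flot1 was under Pacsin3 in acLDL-low replicate 3 and above it in the other libraries.

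**Figure D3:**
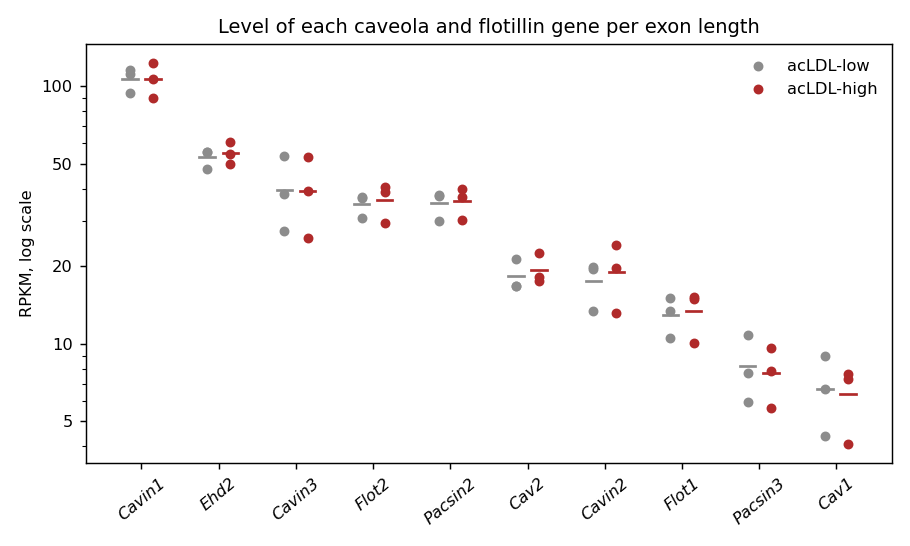
Level per length of the 10 genes in RPKM (log axis), with a point for each library and a short line at the mean of each population (grey acLDL-low, red acLDL-high). Cavin1 (mean of 6 libraries 107 RPKM) stands clear at the top, and Cav1 (6.52 RPKM) is at the bottom with Pacsin3 (7.93 RPKM).

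The plot of levels shows the low rank of the caveolin scaffold gene beside its coat partner. The ratio of Cavin1 to Cav1 in RPKM was 17.2, 12.4 and 21.4 in acLDL-low and 16.1, 14.6 and 22.0 in acLDL-high replicates 1, 2 and 3. Cav2 exceeded Cav1 in all 6 libraries, with a ratio from 2.37 to 4.30, and Ehd2 exceeded Cav1 with a ratio from 5.34 to 13.3. These ratios compare RNA and rest on 1 exon length per gene, whatever isoforms the cells use.

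None of 5 such ratios differed detectably between the populations. The log2 ratio changed from acLDL-low to acLDL-high by 0.06 ± 0.17 for Cavin1 to Cav1, 0.15 ± 0.23 for Cav2 to Cav1 and 0.12 ± 0.21 for Ehd2 to Cav1 (mean ± SD of 3 pairs). For Pacsin2 to Pacsin3 it changed by 0.11 ± 0.09 and was at least as high in acLDL-high cells in 3 of 3 pairs, and for Flot2 to Flot1 by 0.0029 ± 0.11. A two-sided exact sign-flip permutation test gave p from 0.25 to 1.0, and from 0.833 to 1.0 when adjusted over the 5 ratios, where 0.25 is the smallest p that 3 pairs allow. The SDs set the precision here, since a design of 3 pairs cannot reach 0.05 by this test.

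**Figure D4:**
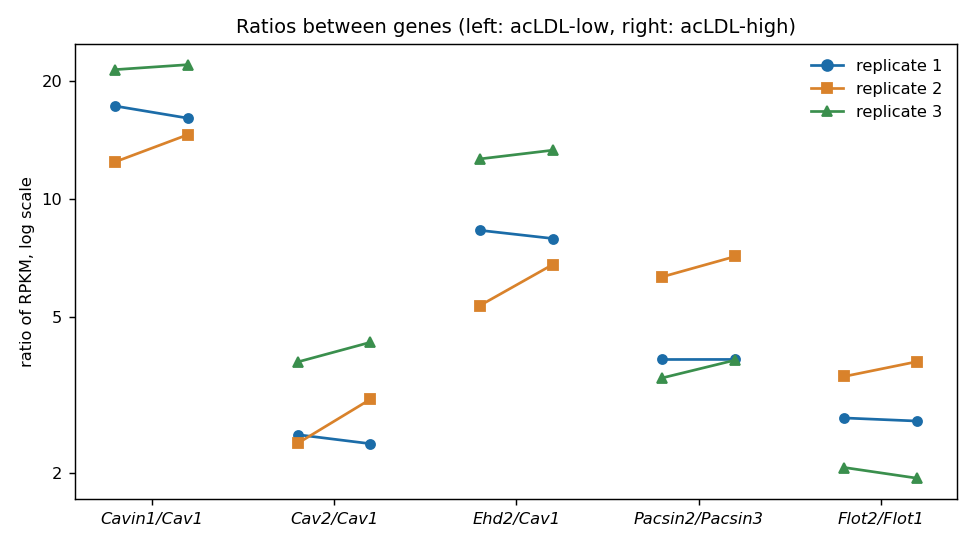
Ratio of RPKM within a library (log axis) for 5 pairs of genes, with lines joining acLDL-low to acLDL-high of the same replicate number. The ratio of Pacsin2 to Pacsin3 lay between 3.49 and 3.89 in replicates 1 and 3 and at 6.32 and 7.12 in replicate 2.

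As the plot of ratios shows, the replicate number moved them more than the sort. The labels give the number without saying what libraries of a number share, such as a day, a culture or a sort. All 10 passed the edgeR quasi-likelihood test of the replicate number at an adjusted p of 0.05, with 0.00287 the largest, against 78.0% of all genes tested, or 84.1% of those with an average of at least 3 on the log2 CPM scale. The 10 genes thus went with most of the transcriptome. The log2 ratio of the highest to the lowest replicate number had a median of 0.46 over the 10 and 0.38 over that set of well-expressed genes. In each of the 10, the range between replicate numbers was at least 3.92 times the size of the fitted change between populations. The range runs from the highest to the lowest of 3 numbers, whereas the change averages differences of both signs. Over the well-expressed genes the median range was 0.38 and the median size of the change 0.057. A larger range was therefore not particular to the 10, and the share of all genes at or above 3.92 was not counted. Differences of culture, sort, library or sequencing between the numbers cannot be told apart.

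The genes fell into patterns by which replicate number was lowest. Cavin3, Pacsin3, Flot1 and Ehd2 were lowest in replicate 2. Cavin3 averaged 64.3, 44.2 and 88.5 CPM in replicates 1, 2 and 3, a highest-to-lowest ratio of 2.00 (adjusted p = 2.17e-08). Pacsin3 averaged 33.6, 25.0 and 44.3 CPM (ratio 1.77, adjusted p = 4.95e-07) and Flot1 41.0, 29.9 and 43.8 CPM (ratio 1.46, adjusted p = 1.40e-05). For all 4 genes, and also for Cavin1, the libraries of the 3 replicate numbers did not overlap, though narrowly in Flot1 and Ehd2. The share of all genes tested without such overlap was not counted. Ehd2 had the narrowest ratio of the 10, 1.19 (adjusted p = 0.00287).

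Cav1, Cav2, Cavin1, Cavin2 and Flot2 were lowest in replicate 3. Cav1 averaged 24.7, 28.1 and 14.6 CPM in replicates 1, 2 and 3 (ratio 1.92, adjusted p = 4.77e-06), with both replicate 3 libraries under the other 4. Cavin2 averaged 60.5, 66.7 and 40.6 CPM (ratio 1.64, adjusted p = 6.50e-06). In Cavin1 the range was smaller, from 428 to 392 to 329.8 CPM (ratio 1.30, adjusted p = 0.000158). Cav2 was instead set apart by its replicate 2, at 73.1 CPM against 58.1 and 57.4 CPM. Pacsin2 was the remaining gene, lowest in replicate 1 at 148 CPM against 190.4 and 184 CPM.

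Paralogs therefore moved differently between the same replicate numbers. From replicate 2 to replicate 3, Cavin3 was higher by 1.00 on the log2 scale (SE 0.05) while Cavin2 fell by 0.71 (SE 0.08). Over the same step Pacsin3 was higher by 0.82 (SE 0.06) and Pacsin2 differed by -0.05 (SE 0.05), and Flot1 was higher by 0.55 (SE 0.06) while Flot2 fell by 0.33 (SE 0.06). Both caveolins fell, Cav1 by 0.94 (SE 0.10) and Cav2 by 0.35 (SE 0.05). The differences between paralogs were not themselves tested.

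**Figure D5:**
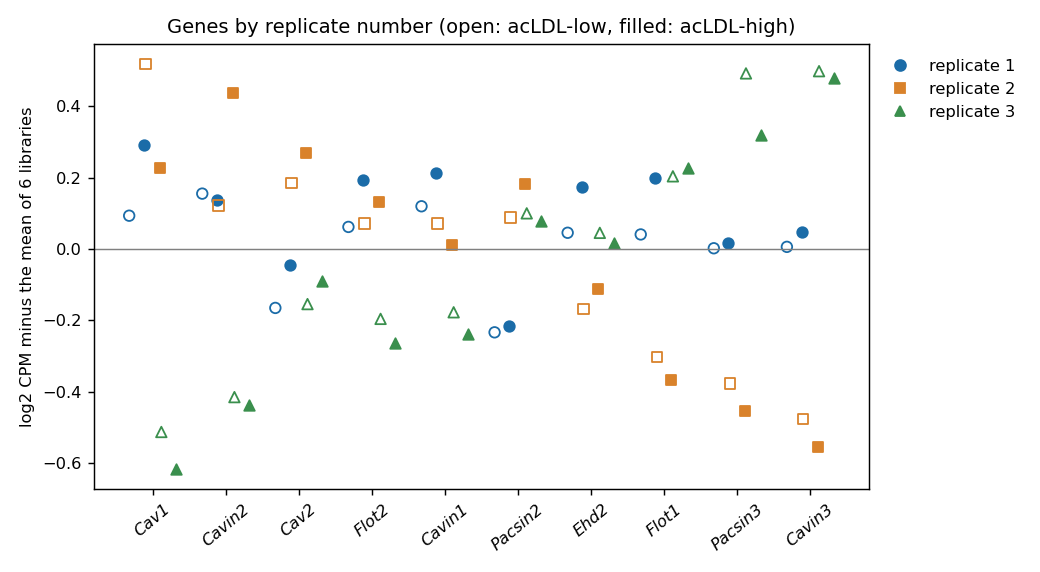
Log2 CPM of the 10 genes relative to their own mean over the 6 libraries (vertical axis) by replicate number, with open and filled points for acLDL-low and acLDL-high cells. Cavin3, Pacsin3 and Flot1 dip in replicate 2, Cav1 and Cavin2 dip in replicate 3, and the points of a number mostly lie nearer to each other than to those of other numbers.

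Over the 6 libraries the log2 CPM of Cavin3 and Pacsin3 had a Pearson r of 0.991, Cav1 and Cavin1 one of 0.870, Cav1 and Cav2 one of 0.626, and Cavin2 and Cavin3 one of -0.900. As the plot by replicate number shows, these 6 points are 3 pairs that share a replicate number, so the coefficients mainly describe differences between the numbers. Among 9201 other genes with an average of at least 3 on the log2 CPM scale, those most like Cav1 were Nr2f2 (r = 0.993), which encodes the nuclear receptor COUP-TFII, Bnip2 (r = 0.989) and Usp5 (r = 0.988). Those most like Cavin1 were Plpp1 (r = 0.994), Itpripl1 (r = 0.992) and Hlx (r = 0.991).

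Wider caveola genes were taken from fixed lists. Of 14 relatives of the 10 genes, 10 were tested and 1 rose, 0 fell and 9 did not pass, against 4.75% called over all genes, with a median log2 fold change of -0.0036. At an unadjusted p under 0.05 there were 5 of 10, against 19.4% over all genes, and they lay on both sides of 0. Among them Ehd4, a relative of Ehd2, had a log2 fold change of 0.16 (adjusted p = 0.0513) and was a second call by DESeq2, and Erlin1, a flotillin relative of the endoplasmic reticulum, had one of -0.17 (adjusted p = 0.0578). The gene that rose was Stom, encoding the raft protein stomatin, a relative of the flotillins. It measured 110.1, 67.0 and 137 CPM in acLDL-low and 119, 78.7 and 158 CPM in acLDL-high replicates 1, 2 and 3, and was higher for 3 of 3 numbers with a log2 fold change of 0.18 (SE 0.04, adjusted p = 0.0299). The groups overlapped, and the call was lost without replicate 3 (adjusted p = 0.206) or replicate 2 (adjusted p = 0.0669). Cav3, the muscle caveolin, and Ehd3 had 0 counts in all libraries, and Pacsin1 and Stoml3 had at most 14.

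Genes for caveola scission, anchoring and caveolin phosphorylation gave 0 called of 11 tested, of 12 listed, in edgeR's quasi-likelihood test, with 0 at an unadjusted p under 0.05, 0 by DESeq2 and a median log2 fold change of 0.01. With 4.75% and 19.4% over all genes, a count of 0 called among 11 is near the background. The smallest p was that of Prkca, a protein kinase C whose binding partner is Cavin2, at a log2 fold change of 0.05 (adjusted p = 0.563). Among 13 receptors and signalling proteins that caveolae can hold, 12 were tested, 1 rose and 0 fell, against 3.43% and 1.32% over all genes, with a median of 0.06. At an unadjusted p under 0.05 there were 4 of 12, against 19.4% over all genes. The receptor that rose was Tgfbr2, a TGF-beta receptor internalised in part through caveolae, at 182, 195 and 161 CPM in acLDL-low and 215, 232 and 171 CPM in acLDL-high replicates 1, 2 and 3. Its log2 fold change was 0.19 (SE 0.05, adjusted p = 0.0313), higher for 3 of 3 numbers, with an adjusted p of 0.0552 without replicate 3 and 0.0766 without replicate 1. Cd36, a scavenger receptor of caveolae, had 0 counts.

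Markers of endothelial cells, of fibroblasts and adipocytes, of macrophages and of mammary carcinoma epithelium were also checked. Endothelial markers gave 0 called of 4 tested and fibroblast and adipocyte markers 0 of 3 in edgeR's test, against 4.75% over all genes. Each list had 0 at an unadjusted p under 0.05, against 19.4% over all genes, and 0 by DESeq2. Lists this short say little beside these shares. The endothelial adhesion gene Pecam1 lay at 0.335 ± 0.02 CPM in acLDL-low and 0.243 ± 0.09 CPM in acLDL-high cells (SD, n = 3 each), and the fibroblast receptor gene Pdgfra changed by 0.08 (adjusted p = 0.393). Fibroblast and adipocyte markers summed to between 29.0 and 43.6 CPM, with Lum and Plin1 at 0 counts. Almost all of this sum was Pdgfra, with means of 34.9 CPM in acLDL-low and 37.1 CPM in acLDL-high cells. Of 8 macrophage markers, 4 were tested and 1 of these, Cd14, rose by 0.32 (SE 0.07, adjusted p = 0.0246), against 3.43% over all genes. The adjusted p of Cd14 in edgeR's test was 0.175 without replicate 3 and 0.0714 without replicate 1. Cd68, another macrophage marker, lay the other way at -0.28 (SE 0.11, adjusted p = 0.201). Cd14 and Cd68 were the 2 of 4 with an unadjusted p under 0.05, against 19.4% over all genes. The 8 summed to between 19.2 and 24.4 CPM with Adgre1 at 0 counts. The 6 epithelial markers all had a log2 fold change above 0, with a median of 0.11. They had 0 calls in edgeR's test, against 4.75% over all genes, and 1 call by DESeq2. At an unadjusted p under 0.05 there were 3 of 6, against 19.4% over all genes. The smallest p in edgeR's test was that of Epcam, higher by 0.14 (SE 0.04, adjusted p = 0.0763). The part of any of these, or of the G2/M genes that rose, in the values of the 10 genes was not tested.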

How the data were processed

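RNA was prepared with a stranded polyA kit and sequenced in pairs. Per the labels and methods, the authors aligned reads to mm10 with STAR (2.5.2a) and deposited raw counts per gene from featureCounts (1.4.3-p1). Annotation release and strand setting are not given in the sources used here. A deposited DESeq2 (1.20.0) table was used only for its gene symbols and list of protein-coding genes; its mean, fold change and p-value columns were not used.

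Counts of 15973 protein-coding genes were fitted with edgeR 4.0.16 (R 4.3.3; TMM, filterByExpr, quasi-likelihood), with population and replicate number as terms and Benjamini-Hochberg adjustment over the 12572 genes tested (threshold 0.05). The study's methods include replicate information. The replicate number comes from the labels, which do not say what it marks: deviations of same-numbered libraries correlated at 0.795, 0.846 and 0.799. Differences between replicate numbers were tested by the replicate terms together. CPM used TMM; differences within numbers and correlations used log2 CPM with a prior count of 2. Exon lengths and positions came from GENCODE M21 (GRCm38). A floor of 3 counts is 0.0318 to 0.0427 CPM, for counting error only. P-values and intervals rest on the spread between these libraries, all of 1 clonal line. In edgeR's fit the spread of a gene is moderated with that of all genes tested. They therefore do not measure the spread of that gene's own 3 pairs alone. DESeq2 1.42.0 and 8 other settings were alternatives. Scripts were tested on simulated data.

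The genes and lists were chosen with earlier results of these data known. Named were all 10 genes, the called members of each list (at most 5 by p) or else its smallest p, and the 3 genes most like Cav1 and Cavin1. The marker genes at 0 counts, Krt8, Pacsin1, Stoml3, Ehd4, Erlin1 and Cd68 were named after their values were seen.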

Additional observations from a re-analysis of the deposited data

How the results depend on the processing

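The replicate block decides how many genes pass. Without the replicate block, 0 genes were called in place of 597, with 45 at an unadjusted p under 0.05; with no filter on low counts 932 were called, and leaving out each replicate number gave between 126 (without replicate 3) and 869. The other settings gave 505 to 666. None of the 10 genes of interest was called in any of the 9 alternatives (smallest adjusted p 0.137), and their 90 recomputed log2 fold changes ran from -0.20 to 0.15. Their count at an unadjusted p under 0.05 was 1 (Cav2) with DESeq2 size factors, 1 (Cav2) over all genes of the count table, 2 (Cav1 and Cavin2) without replicate 1 and 0 otherwise. The relatives list had 0 to 3 called genes over the alternatives, Stom, Ehd4 and Erlin1 being the 3 with no low-count filter.

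Signs near 0 changed. Cavin1 was 0.00051 without the block and 0.0013 over all genes of the count table. With replicates left out in turn, Cav1 ran from -0.20 to 0.053, Cavin1 from -0.059 to 0.019, Cavin2 from -0.022 to 0.15, Cavin3 from -0.046 to 0.0085, Pacsin2 from -0.0044 to 0.058, Flot1 from -0.018 to 0.088 and Flot2 from -0.0015 to 0.10. The log2 ratio of Cavin1 to Cav1 ran from -0.031 to 0.14 and that of Flot2 to Flot1 from -0.058 to 0.050. Between replicate numbers, which could not be tested without the block, 10 of 10 genes were called in the other settings that kept all replicates, and 7 to 9 with a replicate left out, where only 2 numbers remained. The called genes of the lists all had an adjusted p of 1.0 without the block. The cause of these changes was not tested.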

Other observations

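Uptake carriers that need no caveolin and the lipids that build ordered membrane are not caveola genes but meet the same membrane. Of 14 genes for clathrin-independent carriers without caveolin, 13 were tested, 1 rose and 0 fell, with a median log2 fold change of -0.02. The gene that rose was Arhgap26, encoding the GRAF1 protein of these carriers. It measured 30.0, 20.2 and 36.3 CPM in acLDL-low and 37.9, 24.1 and 42.4 CPM in acLDL-high replicates 1, 2 and 3. It was higher for 3 of 3 numbers, with a log2 fold change of 0.27 (SE 0.05, adjusted p = 0.00885 in edgeR's test, and 0.0749 without replicate 3). The groups overlapped.

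Of 12 genes for raft sphingolipid and cholesterol supply, all 12 were tested, 1 rose and 0 fell, with a median of 0.04. The gene that rose was Sgms2, encoding a sphingomyelin synthase of the plasma membrane. Its level was 213, 200 and 217 CPM in acLDL-low and 255, 220 and 251 CPM in acLDL-high replicates 1, 2 and 3, so the groups did not overlap. Its log2 fold change was 0.20 (SE 0.04, adjusted p = 0.0193), with an adjusted p of 0.134 without replicate 3 and 0.0621 without replicate 1. Of all genes tested 3.43% rose, so a single call in a list of this size says nothing about the list. Between replicate numbers, 12 of 13 carrier genes and 11 of 12 lipid genes were called, against 78.0% of all genes.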
